A study of Drosophila melanogaster with 26 samples.

Results

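The nuclear genes for proteins of the mitochondrial ribosome were followed across 26 RNA sequencing libraries of Drosophila melanogaster embryos. A gene was included when its symbol began with mRpL or mRpS followed by a digit and its level was above 0 TPM in at least 3 libraries. TPM is a read count corrected for the length of the transcript and rescaled so that every library has the same total. The symbol pattern matched 73 of the 14220 genes in the deposited tables, and each of the 73 was above 0 in all 26 libraries. By name, 47 encode proteins of the large subunit and 26 proteins of the small subunit. The mammalian counterparts of mRpS18A and mRpS30 lie in the large subunit in spite of the small-subunit name, so the classes used here follow the names only. A bacterial ribosome has a counterpart of 45 of the proteins, and the other 28 are specific to mitochondria.

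The mitochondrial ribosome translates the few mRNAs of the mitochondrial genome, which encode core subunits of the respiratory chain and of ATP synthase. Its ribosomal RNAs come from the mitochondrial genome, whereas all of its proteins are encoded in the nucleus, made in the cytosol and imported. A Drosophila egg is loaded by the mother with mitochondria and with mRNAs, many of which are destroyed while the embryonic genome is switched on, so a transcript level in the early embryo can reflect maternal supply, its decay and new transcription.

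Embryos of nuclear cycles 13 and 14 were staged, pooled in groups of 3, and their total RNA was sequenced. The study asked what the loss of the fifth zinc finger of Zelda does; Zelda, the product of zld, is a transcription factor that opens early embryonic enhancers. Wild type consisted of 3 libraries on day 1, whose genotype label is sfGFP-ZLD, and 6 libraries on day 2, whose genotype label is H2B-EGFP. Libraries of the finger deletion carry the label mNG-ZF5 GLC, are named Zf5 in what follows, and number 3 for day 1 and 6 for day 2. A group labelled Zld294 had 8 libraries, all on day 3. The wild-type label names a tagged Zelda on one day and a tagged histone on the other, and no library is free of a tag by its label except those of Zld294. Genotype and day cannot be told apart for Zld294, nor can wild-type label and day. The labels do not say whether the samples of a group came from separate parents or collections, so p-values measure only the spread between these samples.

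The level of zld checked the labels. It was 1344, 1343 and 914 TPM in wild type of day 1, between 900.2 and 1013 TPM in wild type of day 2, and between 148 and 953 TPM in Zf5, whose labelled change is in the protein. In Zld294 it was between 0.0873 and 43.2 TPM, below every other library. All 34 maternal mRNAs of a marker list were above 0 in every library, and at least 30 of 37 early zygotic mRNAs were above 0 in every library of each group. The 20 genes of a list for adult and larval tissue summed to between 0.289 and 29.1 TPM. An early zygotic score, the mean log2(TPM + 1) of the 37 genes, lay between 4.12 and 6.92 in the day 1 wild type and between 1.94 and 6.24 in the day 2 wild type. It lay between 4.47 and 5.35 in the day 1 Zf5 libraries, between 1.03 and 5.61 in those of day 2 and between 0.899 and 4.33 in Zld294. Against wild type over both days, 1 of 36 tested genes of this list was higher and 9 were lower in Zf5 (limma). In Zld294 against wild type, 1 was higher and 13 were lower. Of all genes tested, 5.20% and 15.0% were called in these comparisons. Between genotypes the score therefore cannot tell stage from genotype. In pooled whole embryos, fewer cells of a type and less RNA per cell cannot be told apart.

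Mitoribosomal mRNAs were present at moderate levels that differed widely between genes of the same complex. The mean TPM over the 26 libraries had a median of 29.4 over the 73 genes, with 6 genes at 100 or more, 58 between 10 and 100, and 9 under 10. The highest mean belonged to mRpS5, at 217 TPM, a protein of the small subunit near the path where the messenger enters. It was followed by mRpS30 at 164, mRpL1 (a mobile stalk of the large subunit) at 134, mRpL28 at 113, mRpS9 (which reaches towards the peptidyl tRNA) at 112, mRpS7 (the small-subunit head) at 103, mRpL45 (mitochondria-specific) at 94.7 and mRpS22 (mitochondria-specific) at 85.3 TPM. These 8 genes held 34.0% of the summed level of the 73. The lowest means were those of mRpL38 at 2.24, mRpL43 at 2.52, mRpS25 at 2.99 and mRpL47 at 4.30 TPM, all 4 of which have no bacterial counterpart. Median means were close between classes. They were 29.4 TPM for the large and 30.8 TPM for the small subunit, and 31.0 TPM with and 25.6 TPM without a bacterial counterpart.

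The genes share a compact structure that their selection did not use. By the Ensembl release 115 annotation of BDGP6.54, the longest transcript had a median of 783 bases and 2 exons, against 1704.5 bases and 3 exons for 13674 protein-coding genes of the tables. A neighbouring gene started within 500 bases on the opposite strand, pointing away, for 51 of the 73, which is 69.9% against 25.0% of protein-coding genes. A single annotated transcript was listed for 55 genes. A gene on the opposite strand overlapped 42 of the 73 and a gene on the same strand overlapped mRpL13, mRpL53 and mRpS14. Whether reads were assigned by strand is not given in the sources used here, so values of overlapping genes are uncertain. The genes were spread over the chromosomes, with 11 on X, 12 on 2L, 12 on 2R, 17 on 3L and 21 on 3R.

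The summed level of the 73 genes differed most plainly between the wild-type groups. It was 1899.8, 1860.4 and 2395 TPM on day 1 and had a lowest value of 2983, a median of 3090.5 and a highest value of 3421 TPM on day 2. The wild-type groups did not overlap. In Zf5 it was 3560, 3043 and 2481 TPM on day 1 and had a lowest value of 2987, a median of 3237 and a highest value of 5761 TPM on day 2, the last of these in replicate 1. In Zld294 the lowest, median and highest sums were 2490, 2801 and 3209 TPM. All Zf5 and Zld294 libraries lay above all wild-type libraries of day 1, and the ranges of Zf5 and Zld294 overlapped that of wild type of day 2. As a share of all transcripts, the 73 genes made up between 0.186% and 0.576% of a library.

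**Figure D1:**
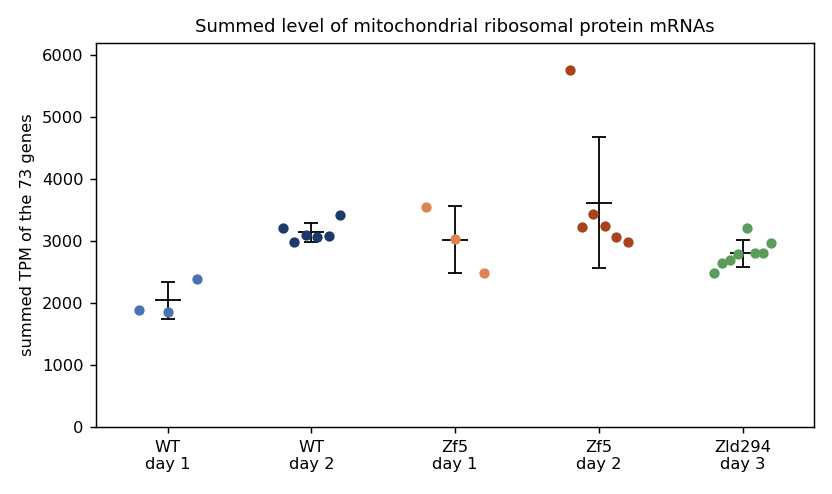
Summed TPM of the 73 genes (vertical axis) in each library by group (horizontal axis); points are libraries, black marks are group means and bars are SD (n = 3, 6, 3, 6 and 8). The 3 wild-type libraries of day 1 lie between 1860.4 and 2395 TPM, below all others, and replicate 1 of Zf5 day 2 stands apart at 5761 TPM.

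In wild type, 30 of the 73 genes were higher on day 2 than on day 1 and 0 were lower (limma, Benjamini-Hochberg adjusted p under 0.05 over 7160 genes). Of all genes tested, 8.20% were called in either direction, 5.56% were higher and 2.64% lower. The median log2 fold change of the 73 was 0.75 and that of all genes tested 0.19. Of the 73, 71 had a higher fitted value on day 2, as had 4715 of the 7160 genes tested. Without overlap between the groups, 35 of the 73 were higher and 0 lower, where 10.9% of all genes tested were higher and 4.43% lower without overlap. The called genes included 22 of the 47 large-subunit and 8 of the 26 small-subunit genes, 20 of the 45 with a bacterial counterpart and 10 of the 28 without. Their log2 fold changes ran from 0.50 for mRpL45 to 1.69 for mRpL20.

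Among large-subunit genes, mRpL20, whose bacterial counterpart is needed early in assembly of the subunit, was at 11.2, 15.6 and 5.91 TPM on day 1 and at 31.7 (lowest), 34.7 (median) and 39.7 TPM (highest) on day 2. The groups did not overlap, and its mean was 10.9 ± 4.83 TPM (SD, n = 3) against 35.2 ± 3.07 TPM (SD, n = 6), a log2 fold change of 1.69 ± 0.267 (SE) with a limma adjusted p of 0.00794. The gene for the stalk protein mRpL12, which recruits translation factors, was at 43.1, 57.6 and 24.3 TPM on day 1 and at 59.8, 111 and 121 TPM (lowest, median, highest) on day 2. Its groups came within a few TPM of each other without overlapping, and its log2 fold change was 1.33 ± 0.300 with a limma adjusted p of 0.0284. For mRpL13, whose bacterial counterpart also acts early in assembly, the levels were 24.1, 21.4 and 28.2 TPM on day 1 and 48.5, 53.4 and 57.2 TPM (lowest, median, highest) on day 2. Its log2 fold change of 1.09 ± 0.147 had a limma adjusted p of 0.00393, the lowest among the 73 in this comparison.

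The rise was also carried by mRpL18, a protein of the central protuberance, with means of 10.0 and 24.9 TPM on day 1 and day 2 and a log2 fold change of 1.23. For mRpL17, which lies near the exit tunnel in bacteria, the means were 15.6 and 35.3 TPM and the log2 fold change 1.13. The mitochondria-specific mRpL54 and mRpL40 had log2 fold changes of 1.10 and 1.07. In the small subunit, mRpS14, an RNA-binding protein of the head, was at 9.49, 11.8 and 9.18 TPM on day 1 and at 18.8, 25.6 and 29.7 TPM (lowest, median, highest) on day 2. Its log2 fold change was 1.23 ± 0.204 with a limma adjusted p of 0.00941. The adjusted p-values (limma) of mRpL17, mRpL18, mRpL40 and mRpL54 were 0.00482, 0.0118, 0.0188 and 0.00987.

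Not all genes of the complex differed between the wild-type groups. mRpL2, which lines the peptidyl transferase centre, had means of 9.96 TPM on day 1 and 9.71 TPM on day 2 and a log2 fold change of -0.36. mRpS30, the second most abundant of the 73, had means of 152 and 144 TPM and a log2 fold change of -0.07. These were the 2 genes with a lower fitted value on day 2, and neither passed the test, with limma adjusted p-values of 0.768 and 0.819.

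**Figure D2:**
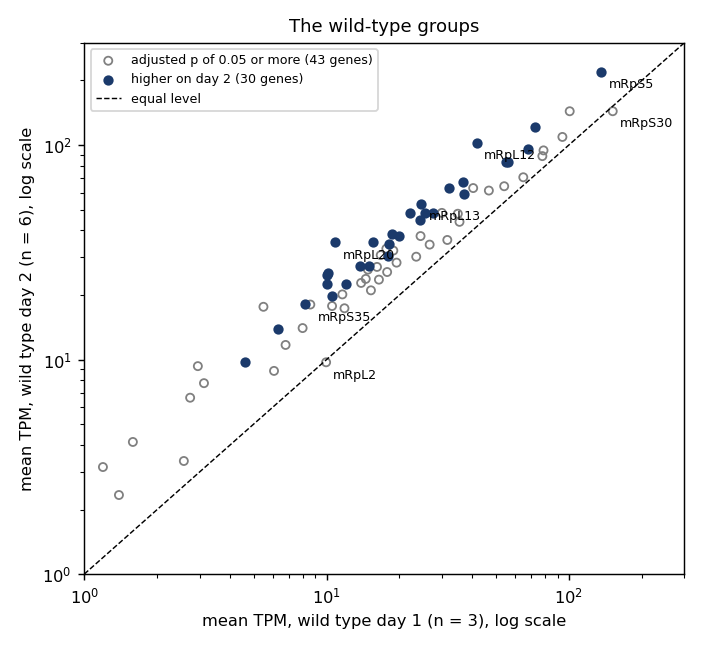
Mean TPM of each of the 73 genes in wild type of day 1 (horizontal axis, n = 3) and of day 2 (vertical axis, n = 6), both on log scales. Filled points are the 30 genes called higher on day 2, open points the other 43, and the dashed line marks equal levels; most points lie above the line, with mRpL2 and mRpS30 at or below it.

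The early zygotic scores of the wild-type groups overlapped, from 4.12 to 6.92 on day 1 and from 1.94 to 6.24 on day 2, and their part in the difference was not tested. With a stage covariate (the score of late zygotic mRNAs minus that of maternal mRNAs) 59 of the 73 genes were called higher. That fit called 39.1% of all genes tested in either direction. Without the library of each group with the highest early zygotic score, 50 were called higher, beside 20.5% of all genes tested. That alternative was chosen after seeing the data. Scaling the libraries by median ratio moved the median of all genes tested by -0.17 and left 14 of the 73 called, all higher. After scaling, 6.20% of all genes tested were called. The median of the 73 exceeded that of all genes by 0.56 before and 0.55 after scaling. With 1 library removed, 3 genes (mRpL13, mRpL17 and mRpL20) were called without replicate 1 of day 1. There were 10 without replicate 2 of day 1 or replicate 1 of day 2, and 31 without replicate 3 of day 1. Without replicates 2, 3, 4, 5 and 6 of day 2 there were 15, 17, 14, 38 and 16. Over these fits the count of all genes called ran from 126 to 1215.

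Between the Zf5 groups of day 2 and day 1, 0 of the 73 genes and 0 of all 7908 genes tested passed (limma, background 0%). An unadjusted p under 0.05 was found for 2 of the 73 and for 394 of all genes tested. The median log2 fold change was 0.22 for the 73 genes and 0.13 for all genes tested, and that of the 73 was 0.09 without replicate 1 of day 2, 0.36 without replicate 1 of day 1 and 0.10 without replicate 3 of day 1. In this comparison mRpL37, mRpS2, mRpS25 and mRpS31 were higher on day 2 without overlap, 4 of 73 where the background was 2.53%; 0 were lower without overlap, against 0.797% of all genes. The mitochondria-specific mRpL37 had the smallest unadjusted p of the 73, with a mean of 3.64 ± 2.13 TPM (SD, n = 3) and a lowest level of 1.87 TPM on day 1, and levels of 6.71, 10.1 and 30.9 TPM (lowest, median, highest) on day 2. Its log2 fold change was 1.59 ± 0.559 with a limma adjusted p of 0.856. The fitted values of mRpS2, whose protein sits on the outer side of the small subunit, and of mRpS25 were 1.58 and 0.88, with the same limma adjusted p of 0.856. Under each of the alternative settings the count of called genes stayed at 0.

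Comparing Zf5 with wild type over both days, with day as a covariate, mRpL2, mRpL33 and mRpS22 were higher in Zf5 and 0 genes were lower, 3 of 73 where 5.20% of 8151 genes tested were called in either direction, 3.10% higher and 2.10% lower (limma). The share of the 73 called is near that background. The median log2 fold change was 0.30 for the 73 genes and 0.01 for all genes tested. Of the 73, 58 had a positive value and 26 had an unadjusted p under 0.05 (limma). Of the 8151 genes tested, 4171 had a positive value and 2077 had an unadjusted p under 0.05.

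mRpL2, an RNA-binding protein of the peptidyl transferase region, showed the largest difference of the 3. In wild type it was at 8.97, 10.7 and 10.2 TPM on day 1 and at 2.12, 6.91 and 20.4 TPM (lowest, median, highest) on day 2. In Zf5 it was at 31.9, 25.6 and 25.7 TPM on day 1 and at 16.6, 34.4 and 70.0 TPM (lowest, median, highest) on day 2. All 3 Zf5 libraries of day 1 lay above all wild-type libraries, whereas on day 2 the lowest Zf5 library lay below the highest wild-type library. Over both days the mean of Zf5 was 34.1 ± 14.9 TPM (SD, n = 9) and that of wild type 9.80 ± 6.04 TPM (SD, n = 9). The log2 fold change was 1.83 ± 0.353 (SE) with a limma adjusted p of 0.00484. This call held under all 27 alternative settings, with log2 fold changes from 1.43 to 2.12 and limma adjusted p-values from 0.000627 to 0.0130.

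The gene mRpL2 (FBgn0036135, BDGP6.54 chromosome 3L, bases 11120847 to 11122041, plus strand, 2 exons) overlaps Ufd1 on the opposite strand and starts 64 bases from FoxK, which points away. Ufd1, whose product takes part in protein degradation, was between 3.10 and 25.2 TPM in wild type of day 1 and at 4.20, 5.30 and 3.53 TPM in Zf5 of day 1. On day 2 it ran from 5.21 to 45.6 TPM in wild type and from 5.04 to 75.5 TPM in Zf5. Replicate 1 of Zf5 day 2 was the highest of its group for both genes, at 70.0 TPM for mRpL2 and 75.5 TPM for Ufd1, and replicate 3 was the next, at 38.6 and 38.9 TPM. The part of overlapping reads in the result was not tested. FoxK was at 308, 278 and 329 TPM in wild type of day 1 and at 289, 277 and 320 TPM in Zf5 of day 1, with overlapping ranges.

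mRpS22, a mitochondria-specific protein that in humans is tied to inherited respiratory chain disease, was at 51.7, 49.0 and 66.8 TPM in wild type of day 1 and at 93.4, 93.9 and 107 TPM in Zf5 of day 1. On day 2 its lowest, median and highest levels were 76.7, 81.7 and 98.6 TPM in wild type and 80.8, 118 and 133 TPM in Zf5. The groups were apart on day 1 and overlapped on day 2, and the log2 fold change over both days was 0.53 ± 0.137 with a limma adjusted p of 0.0285. mRpL33, a small protein of the tRNA exit region in bacteria, was at 11.1, 9.30 and 15.2 TPM in wild type and 33.0, 21.6 and 17.8 TPM in Zf5 on day 1. Its lowest, median and highest levels on day 2 were 14.5, 16.0 and 21.5 TPM in wild type and 18.5, 27.6 and 34.6 TPM in Zf5. Its log2 fold change over both days was 0.71 ± 0.189 with a limma adjusted p of 0.0335, and its groups too were apart on day 1 and overlapped on day 2.

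These smaller differences depended on single libraries, while mRpL2 did not. mRpL33 and mRpS22 were lost, leaving mRpL2 alone, without replicate 1 or 2 of day 1 in either genotype, without replicate 2, 3 or 4 of the day 2 wild type and without replicate 4 of Zf5 day 2. mRpL33 alone was also lost without replicate 1 of the day 2 wild type or replicate 2 or 6 of Zf5 day 2, and mRpS22 alone without replicate 3 of Zf5 day 1. Median-ratio scaling ended both calls, with limma adjusted p-values of 0.0634 for mRpL33 and 0.0783 for mRpS22. Without replicate 3 of Zf5 day 2 the count was 7, and without its replicate 5 it was 6. In these fits 9.66% and 7.76% of all genes tested were called. Replicates 1 and 3 of Zf5 day 2 had early zygotic scores of 1.03 and 1.37, against 4.03 to 5.61 in the other 4. Those 4 were not alike in the late zygotic and maternal scores (mean log2(TPM + 1) of each list). Late zygotic scores were 3.37 and 3.52 in replicates 4 and 6, against 2.75 and 1.94 in replicates 2 and 5. Maternal scores were 5.64 and 4.87, against 6.22 and 7.59. Without replicates 1 and 3, an alternative chosen after seeing the data, 20 of the 73 were called, 16 higher and 4 lower. In that fit 3048 genes in all were called, 37.5% of those tested.

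**Figure D3:**
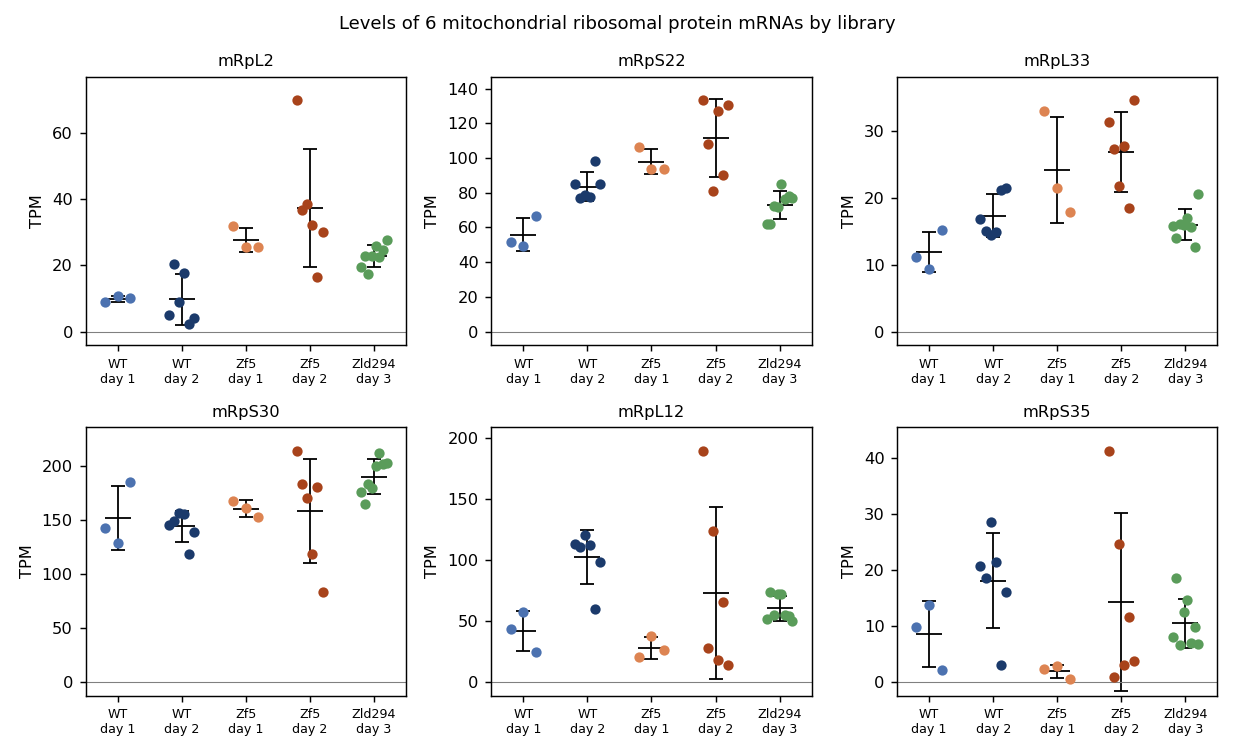
TPM of 6 genes in each library (vertical axes, one per gene) by group (horizontal axes); points are libraries, black marks are means and bars are SD (n = 3, 6, 3, 6 and 8). mRpL2 is at 16.6 TPM or more in all Zf5 and Zld294 libraries and at 20.4 TPM or less in all wild-type libraries, and mRpL12 and mRpS35 spread widely within Zf5 of day 2.

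On day 1 alone, 0 of 72 genes tested passed for Zf5 against wild type (limma; mRpL38 was too low to be tested), while 1.69% of all genes were called, 0.781% higher and 0.906% lower. Of the 72, 24 had an unadjusted p under 0.05, as had 1270 of the 7172 genes tested. The median log2 fold change was 0.61 for the 72 genes and 0.05 for all genes tested. Without overlap, 35 of the 72 were higher in Zf5 and 0 lower, where 16.6% of all genes tested were higher and 7.47% lower without overlap. The smallest unadjusted p-values belonged to mRpL2, mRpS22 and mRpL44, with log2 fold changes of 1.38, 0.81 and 1.01 and limma adjusted p-values of 0.0712, 0.106 and 0.107. mRpL44, a mitochondria-specific protein related to an RNA-cutting enzyme family, was at 31.3, 25.6 and 39.1 TPM in wild type and at 73.5, 63.5 and 57.9 TPM in Zf5, without overlap. Without replicate 3 of the wild type, 9 of 73 genes were called, 8 higher and 1 lower, where 16.7% of all genes tested were called. A fit of all 26 libraries called 14, and a stage covariate called mRpL2 and mRpL20. Of all genes tested, these fits called 5.61% and 12.5%. The lists behind the covariate themselves differed between the genotypes. In Zf5 against wild type over both days, the median log2 fold change was 1.12 for late zygotic and -0.61 for maternal mRNAs. Fits with this covariate therefore cannot separate stage from genotype.

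On day 2 alone, 0 of 73 genes passed (limma), while 1.90% of all genes tested were called, 0.730% higher and 1.17% lower. An unadjusted p under 0.05 was found for 6 of the 73 and for 812 of the 6990 genes tested. For the 73 genes the median log2 fold change was 0.17, beside -0.09 for all genes tested. Without replicate 1 of Zf5 day 2 the median of the 73 was -0.02, still with 0 genes called. No gene of the 73 was free of overlap in either direction, against 1.20% of all genes higher and 1.43% lower without overlap. mRpL2 again had the smallest unadjusted p, with a log2 fold change of 2.05 ± 0.497 and a limma adjusted p of 0.0565. mRpL33 followed with 0.59 and mRpS7 with 0.44, with limma adjusted p-values of 0.331 and 0.378. mRpS7 was at 81.0, 93.9 and 109.7 TPM (lowest, median, highest) in wild type and at 92.4, 131 and 170.1 TPM in Zf5. A stage covariate, which cannot separate stage from genotype here either, called 10 of the 73 and 35.5% of all genes tested. Median-ratio scaling, the fit of all 26 libraries, and leaving out replicate 2 of wild type or replicate 5 of Zf5 each called 1. Of all genes tested, these called 1.90%, 7.07%, 1.35% and 2.26%, respectively.

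The Zf5 effect on day 2 minus that on day 1 had a median log2 value of -0.39 over the 73 genes. It was -0.03 over all genes tested. Values were negative for 61 of the 73 and for 4223 of the 8151 genes tested. The median of the 73 was -0.25 without replicate 1 of Zf5 day 1. No gene of the 73 passed the interaction test (limma), and 0.478% of all genes were called, 0.245% with a positive and 0.233% with a negative value. An unadjusted p under 0.05 was found for 7 of the 73 and for 413 of all genes tested. mRpS5 had the smallest unadjusted p. It was at 123, 122 and 164 TPM in wild type and 416, 276 and 191 TPM in Zf5 on day 1, and at 193, 204 and 286 TPM (lowest, median, highest) in wild type and 164, 219 and 266 TPM in Zf5 on day 2. The Zf5 values lay above wild type without overlap on day 1 and overlapped it on day 2, and the difference of the effects was -1.10 ± 0.324 with a limma adjusted p of 0.287. For mRpL13 and mRpL20 the differences were -0.94 and -1.77, and the limma adjusted p was 0.579 and 0.741. The wild-type groups that enter these contrasts carry different labels, so the change of the Zf5 effect and the change of wild type share the same libraries.

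Against the 9 wild-type libraries together, Zld294 was higher for mRpL2 and mRpS30 and lower for 0 of the 73 genes, where 15.0% of 6925 genes tested were called, 8.29% higher and 6.76% lower (limma). The share of the 73 called is below that background in this pooled fit only. The fit had no term for day, so the difference between the wild-type groups adds to its error. That difference had a median log2 fold change of 0.75 for the 73 genes and 0.19 for all genes tested. Against the wild type of day 1 or of day 2 alone, 43 and 18 of the 73 were called, as given below. An unadjusted p under 0.05 was found for 7 of the 73 and for 1921 of the 6925 genes tested. The median log2 fold change of the 73 was 0.07 beside 0.13 for all genes tested. That median had no stable sign, with -0.01 without replicate 1 or 2 of the day 1 wild type, 0.56 when the wild type was that of day 1 only and -0.18 when it was that of day 2 only. mRpL2 was at 17.3, 22.8 and 27.7 TPM (lowest, median, highest) in Zld294, within the Zf5 range, and overlapped wild type only through wild-type libraries of day 2 at 17.8 and 20.4 TPM. Its log2 fold change was 1.36 ± 0.311 with a limma adjusted p of 0.00604, and the call held under all 27 alternative settings, with limma adjusted p-values up to 0.0410.

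mRpS30, whose human counterpart is also known as a protein linked to programmed cell death, was at 165, 191 and 212 TPM (lowest, median, highest) in Zld294. In wild type it was at 143, 128 and 185 TPM on day 1 and at 119, 147 and 157 TPM (lowest, median, highest) on day 2. All 8 Zld294 libraries lay above all day 2 wild-type libraries, and the 1 wild-type library within their range was replicate 3 of day 1. The log2 fold change was 0.38 ± 0.0811 with a limma adjusted p of 0.00379. The call was lost against wild type of day 1 alone and in the fit of all 26 libraries, where the limma adjusted p was 0.0510 and 0.144.

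The comparison of Zld294 with wild type depended on which wild type was used. Against the day 1 wild type alone, 43 of the 73 genes were called, all higher. Of all genes tested, 27.0% were called there, 1383 higher and 560 lower. Against the day 2 wild type alone, 18 were called, mRpL2 and mRpS30 higher and 16 lower. There 23.8% of all genes tested were called, 847 higher and 813 lower. The share of the 73 called in either direction is near that background. Zld294 lay between the wild types for mRpL20, whose mean there was 26.9 ± 4.30 TPM (SD, n = 8), beside the means of 10.9 TPM on day 1 and 35.2 TPM on day 2 given above. mRpL12 lay in the same order, with means of 41.7, 60.4 and 102 TPM. These pairs share the Zld294 libraries, and all are of different days. The count was 4 when replicate 2 of the day 1 wild type was removed, with mRpL39 and mRpS17 lower beside mRpL2 and mRpS30 higher. In that fit 15.8% of all genes tested were called.

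Against the 9 Zf5 libraries, Zld294 was lower for mRpS22, mRpL33, mRpS21, mRpL28 and mRpL1 and higher for 0 of the 73, where 6.57% of 7050 genes tested were called, 2.34% higher and 4.23% lower (limma). The median log2 fold change was -0.27 for the 73 and 0.14 for all genes tested. An unadjusted p under 0.05 was found for 24 of the 73 and for 2040 of the 7050 genes tested. Without replicate 1 of Zf5 day 2 the median of the 73 was -0.17. mRpS22 was at 61.9, 74.2 and 85.1 TPM (lowest, median, highest) in Zld294 and at 80.8, 107 and 133 TPM in Zf5. Its groups overlapped through the lowest Zf5 library, and its log2 fold change was -0.53 ± 0.127 with a limma adjusted p of 0.0177. mRpL33 was at 12.7, 15.9 and 20.6 TPM in Zld294 and 17.8, 27.3 and 34.6 TPM in Zf5, with a log2 fold change of -0.64 ± 0.167 and a limma adjusted p of 0.0272.

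Of the other 3, mRpS21, whose bacterial counterpart helps in starting translation, was at 16.6, 19.1 and 21.1 TPM (lowest, median, highest) in Zld294 and 18.1, 28.7 and 45.6 TPM in Zf5, a log2 fold change of -0.59 with a limma adjusted p of 0.0428. mRpL28 was at 77.5, 96.2 and 108.5 TPM in Zld294 and 107, 136 and 200.3 TPM in Zf5, a log2 fold change of -0.51 with a limma adjusted p of 0.0303. mRpL1 was at 103, 114 and 136 TPM in Zld294 and 123, 154 and 187 TPM in Zf5, a log2 fold change of -0.41 with a limma adjusted p of 0.0272. In each of these 3 genes the upper end of Zld294 overlapped the lower end of Zf5. Only mRpS22 was still called without replicate 2 or 4 of Zf5 day 2, replicate 1 of Zf5 day 1 or replicate 1, 2, 3, 4 or 7 of Zld294. Without Zf5 day 2 replicate 1 the count rose to 13, with 3 higher and 10 lower, where 29.8% of all genes tested were called. Without replicate 6 of Zld294, mRpL28 and mRpS22 were called. mRpS21 alone was lost without replicate 6 of Zf5 day 2, replicate 2 of Zf5 day 1 or replicate 5 or 8 of Zld294, and with no filter on low values. Without replicates 1 and 3 of Zf5 day 2, chosen after seeing the data, 33 were called, 13 higher and 20 lower. In that fit 58.0% of all genes tested were called.

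Over all libraries, differences between groups included, most of the 73 mRNAs varied in the same direction. The first principal component of log2(TPM + 1) held 55.9% of the variance over the 26 libraries and the second 22.6%. The median correlation over 2628 pairs of genes was 0.57, and 8.90% of pairs had a negative value; all values of a library share its scaling and depth, so this is a description. After the mean of each group was taken off, the median correlation was 0.49 with 17.5% of pairs negative. It was 0.26 with 34.7% negative when replicate 1 of Zf5 day 2 was also left out. In Zf5 of day 2, 65 of the 73 genes had their highest level in replicate 1, whose early zygotic score of 1.03 was the lowest of its group. Its mRNAs of the mitochondrial genome summed to 33846 TPM, the highest of the 26 libraries. The part of these properties in the result was not tested.

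**Figure D4:**
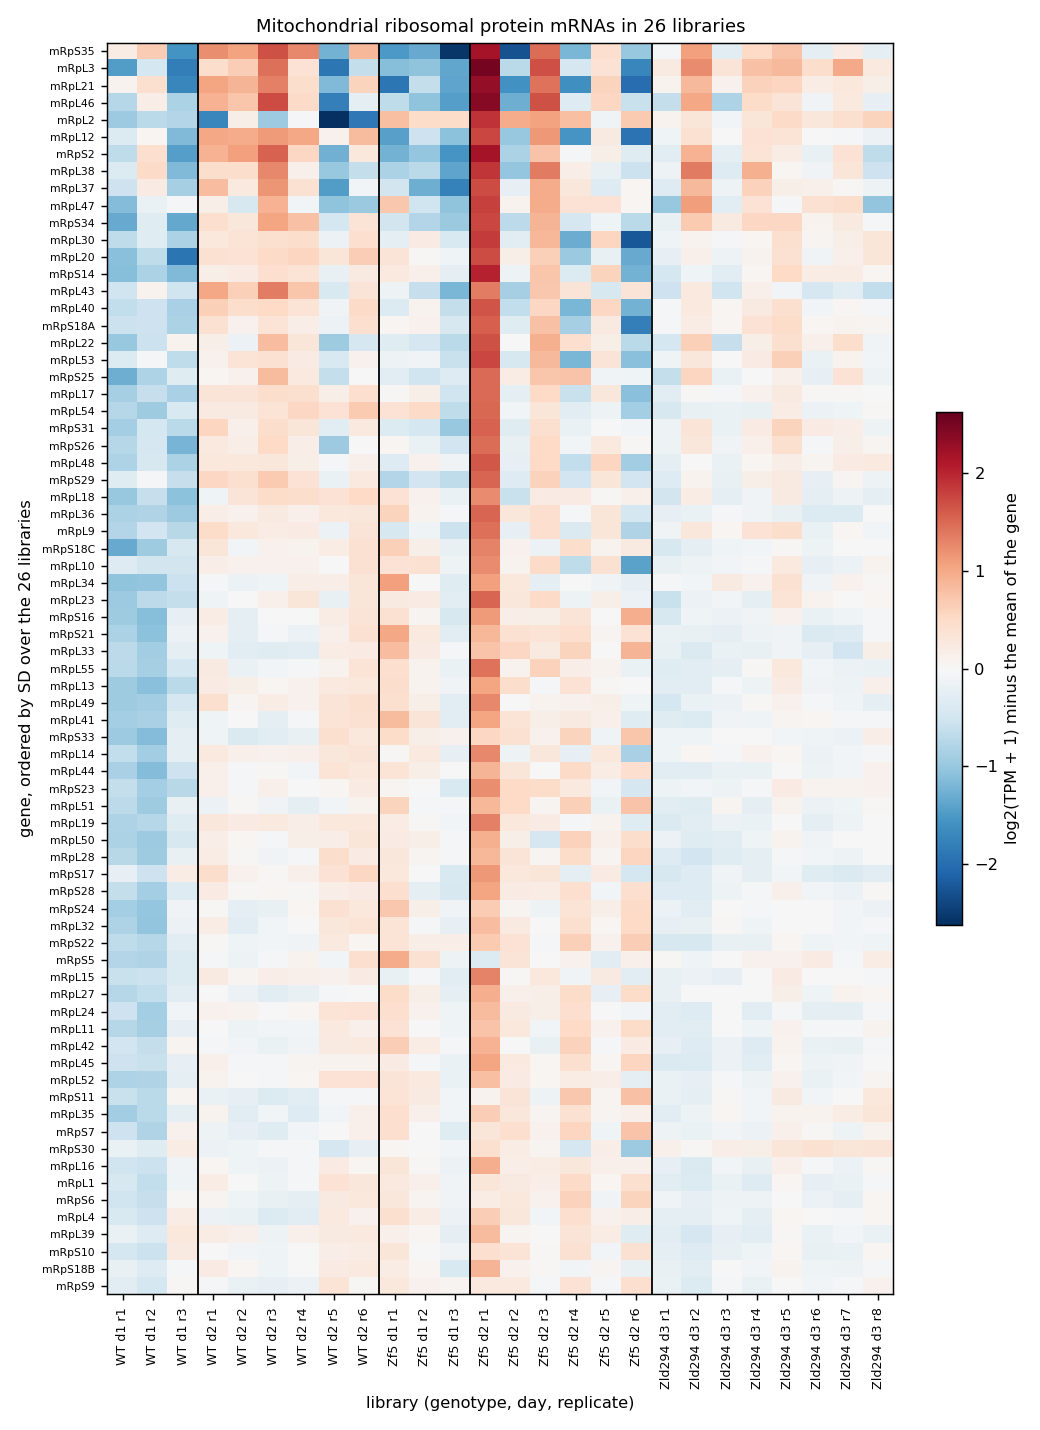
Level of each of the 73 genes (vertical axis, ordered by SD over the 26 libraries) in each library (horizontal axis, grouped by genotype and day, black lines between groups), as log2(TPM + 1) minus the mean of the gene; red is above and blue below that mean. Wild type of day 1 is mostly blue, replicate 1 of Zf5 day 2 is red for 65 genes at their group maximum, and the genes at the top differ most within groups.

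Of genes with a mean of at least 5 TPM, mRpS35, mRpL3, mRpL21 and mRpL46 had the largest SD over the libraries, at 1.26, 1.16, 1.15 and 1.02 on the log2(TPM + 1) scale. mRpS35, a mitochondria-specific small-subunit protein, was at 9.78, 13.8 and 2.17 TPM in wild type of day 1, at 2.97, 19.6 and 28.6 TPM (lowest, median, highest) in wild type of day 2, at 2.31, 2.76 and 0.595 TPM in Zf5 of day 1, at 0.929, 7.68 and 41.4 TPM in Zf5 of day 2 and at 6.63, 8.92 and 18.6 TPM in Zld294. In both wild-type groups the lowest value belonged to the library with the highest early zygotic score. In every group of the series the highest value belonged to the library with the lowest score. The same held for mRpL21, a protein of the large-subunit body, at 7.79 TPM in replicate 5 and 47.7 TPM in replicate 3 of the day 2 wild type, with scores of 6.24 and 1.94. mRpL3, which helps to shape the peptidyl transferase centre, was at 2.85 and 37.6 TPM in the same pair of libraries, and mRpL46, a mitochondria-specific protein, at 0.424 and 15.0 TPM.

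The smallest SDs of genes with a mean of at least 5 TPM were those of mRpS9, mRpS18B, mRpS10 and mRpL39, at 0.23, 0.25, 0.26 and 0.28. For mRpS9 the order in the pair of wild-type libraries was opposite, with 141 TPM in replicate 5 and 94.8 TPM in replicate 3 of day 2. mRpS10, which binds RNA in the small-subunit head, was at 70.7 and 57.7 TPM and mRpS18B at 47.2 and 37.2 TPM in these libraries. In the day 2 wild-type library with the highest early zygotic score, 29 of the 73 genes had the lowest and 11 the highest value of the group. In the highest-scoring library of wild type of day 1, 22 were lowest and 46 highest. In that of Zf5 day 1, 4 were lowest and 55 highest. These counts were 2 and 2 in Zf5 of day 2 and 5 and 13 in Zld294.

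**Figure D5:**
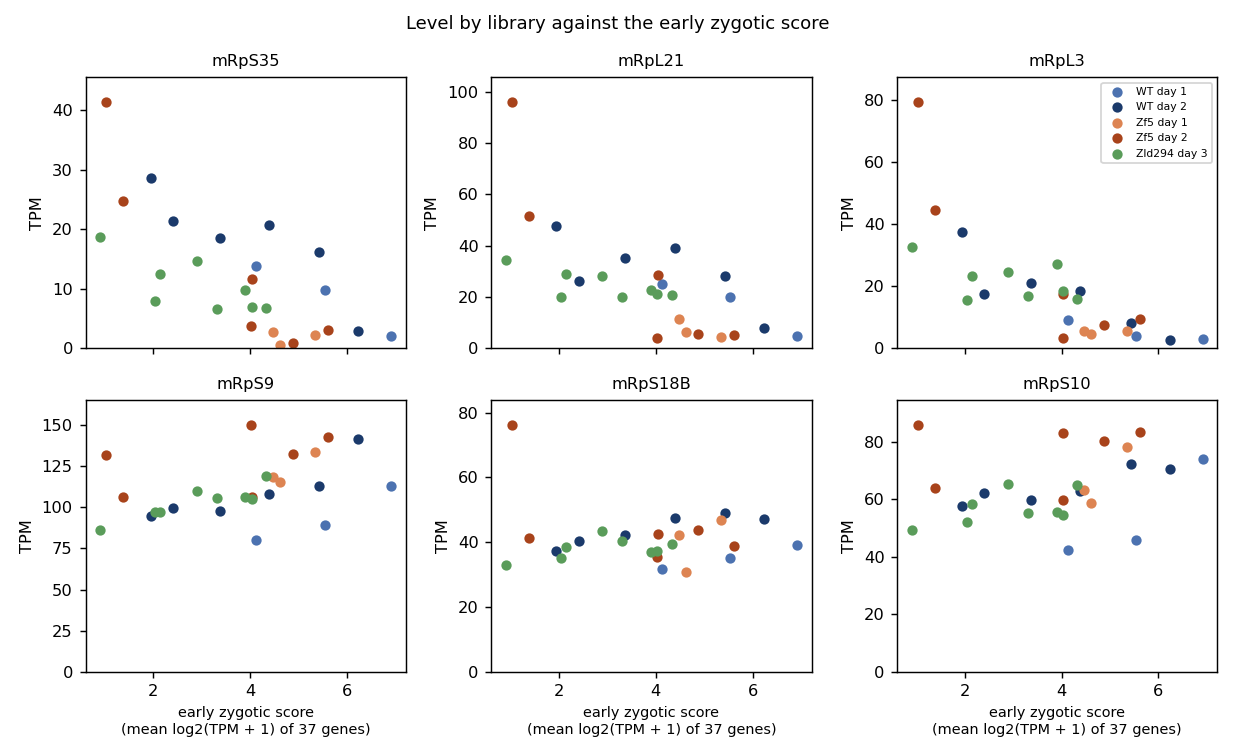
TPM (vertical axes) of the 3 genes with the largest SD (upper panels) and the 3 with the smallest SD (lower panels) against the early zygotic score, the mean log2(TPM + 1) of 37 genes (horizontal axes), with one point per library coloured by group. mRpS35, mRpL21 and mRpL3 are highest in libraries with scores near 1 to 2, whereas mRpS9, mRpS18B and mRpS10 stay within a narrow range apart from single libraries.

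Members of the same structural family differed in level and spread. The 3 paralogs of the S18 family had means over all libraries of 34.6 TPM for mRpS18A, 41.2 TPM for mRpS18B and 12.8 TPM for mRpS18C. mRpS18A ran from 8.37 to 96.1 TPM and mRpS18C from 4.22 to 31.4 TPM, against 30.7 to 76.2 TPM for mRpS18B. In wild type, mRpS18A and mRpS18C were higher on day 2, with log2 fold changes of 0.88 and 1.06 and limma adjusted p-values of 0.0249 and 0.0306, while mRpS18B had 0.30 with a limma adjusted p of 0.298; the difference between the paralogs was not tested. Of the stalk proteins, mRpL10 was higher in the day 2 wild type with a log2 fold change of 0.59 and a limma adjusted p of 0.0218, and mRpL11 had 0.63 with a limma adjusted p of 0.0850.

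Further ribosomal proteins of mitochondria carry names outside the symbol pattern. tko encodes the S12 protein of the decoding site and bonsai the S15 protein. In wild type of day 1, tko was at 30.2, 27.7 and 40.7 TPM, and on day 2 it ran from 50.9 to 67.7 TPM. It was higher on day 2 without overlap, with a log2 fold change of 0.80 and a limma adjusted p of 0.0264. bonsai had a log2 fold change of 1.04 with a limma adjusted p of 0.0618 in that comparison.

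Other nuclear genes of mitochondrial translation were compared in the same way. Of 25 translation factors and mitochondrial aminoacyl-tRNA synthetases in a list that includes tko and bonsai, 4 were higher and 0 lower in the day 2 wild type, where 8.20% of all genes were called, with a median log2 fold change of 0.47. They included AsnRS-m, which charges the asparagine tRNA, at 1.09 and mEFTu1, which delivers charged tRNAs, at 1.09, and their adjusted p-values (limma) were 0.0130 and 0.0263. Of 17 genes for transcription, upkeep and RNA handling of the mitochondrial genome, 2 were higher and 0 lower, namely SLIRP2 at 1.05 and mTerf3 at 0.96, with limma adjusted p-values of 0.0128 and 0.0346. Whether these lists differ from the 73 genes was not tested.

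In Zf5 against wild type, where 5.20% of all genes were called, 0 of the 25 translation genes passed, and of the 17 others TFAM, which packages mitochondrial DNA and starts its transcription, was higher by 0.55 on the log2 scale with a limma adjusted p of 0.00253. The mRNAs that this ribosome translates had a median log2 fold change of 1.16 in Zf5, with 4 of 13 called higher, among them mt:ND6 at 1.59, mt:ATPase6 at 1.39 and mt:ND5 at 1.23, with limma adjusted p-values of 0.0441, 0.00401 and 0.0353. In Zld294 against Zf5, where 6.57% of all genes were called, 9 of these 13 were lower and 0 higher, with a median of -1.09, and mEFTu2, a second carrier of charged tRNAs, was lower by a log2 value of -0.67 with a limma adjusted p of 0.00403. Proteins of the cytosolic ribosome had 58 of 85 mRNAs lower in Zld294 than in Zf5 and a median of -0.51, beside 5 of 73 and -0.27 for those of the mitochondrial ribosome; the difference between these lists was not tested.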

How the data were processed

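RNA of pooled embryos was measured in 26 libraries. The deposited values were TPM; the unit was read from the values, because all 26 columns have a total of 1000000 and list an identical set of 14220 symbols. The submitters' processing notes name kallisto, edgeR, limma and the build BDGP6, with no role or version. Neither the annotation nor the use of strand is given in the sources used here. Sequencing depth cannot be read from TPM and is unknown, so counting error could not be given. Because TPM sums to a fixed total, a large change in abundant transcripts shifts the others.

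The members and gene lists were chosen with earlier results of these data known. Groups follow the labels. Each comparison was fitted with limma 3.58.1 in R 4.3.3 (lmFit and eBayes with a mean-variance trend) on log2(TPM + 1), two-sided, with Benjamini-Hochberg adjustment over all genes tested and a threshold of 0.05. Fold changes on this scale understate those of low genes. A gene was tested when it reached 1 TPM in a number of libraries equal to the size of the smallest group, which was 3 for groups by day and 8 with Zld294. The fit was tested on simulated data. Errors beside log2 fold changes are standard errors.

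Named genes are the 8 highest and 4 lowest by mean, up to 8 called in each direction per comparison (or the 3 with the smallest unadjusted p), the 4 with the largest and the 4 with the smallest SD among those with a mean of at least 5 TPM, the S18 paralogs, the stalk proteins, tko, bonsai and up to 3 called genes of each list; others were named after their values were seen. Alternatives were pseudocounts of 0.1 and 5, other filters, median-ratio scaling, all 26 libraries in 1 fit, a stage covariate, a replicate block, 1 wild-type or Zf5 day, and leaving out libraries. Replicate numbers were not used to pair samples in the reported fits. Gene structure came from Ensembl release 115 (BDGP6.54). Python 3.11.15 with pandas 2.3.3 and numpy 2.4.6 was used for levels.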

Additional observations from a re-analysis of the deposited data

Results flagged for a closer look

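A sample counted as standing apart when its gap to the nearest sample of its group, divided by the range of the group, passed the critical value of Dixon's test at the 95% level. Named genes and the summed level were examined in 120 groups of 4 to 10 samples, and 12 values stood apart; chance flags about 1 in 20 groups. Of the 12, 8 belonged to replicate 1 of Zf5 day 2. There the summed level of the 73 genes was 5761 TPM, with the next library at 3442 TPM. In the same library mRpL18 was at 46.5, mRpL54 at 103, mRpS14 at 91.0, mRpS18B at 76.2, mRpS18C at 31.4, mRpS2 at 22.9 and tko at 123 TPM, each above the other 5 libraries of the group.

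In wild type of day 2, 4 values stood apart in 4 different libraries. mRpL12 was low at 59.8 TPM in replicate 5, with the next at 98.7 TPM, and mRpL18 was low at 17.7 TPM in replicate 1, with the next at 24.4 TPM. mRpL39, a mitochondria-specific large-subunit protein, was low at 73.4 TPM in replicate 3, with the next at 88.0 TPM. mRpS5 was high at 286 TPM in replicate 6, with the next at 224 TPM.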

How the results depend on the processing

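Unless stated otherwise, values here are counts of the 73 genes past the threshold (limma). Called genes of the 73 were followed singly for up to 8 in each direction per comparison, and none of these changed its sign. Other genes named as called were not followed singly. The median log2 fold change of the 73 changed sign for Zf5 on day 2, from 0.17 to -0.02 without its replicate 1, and for Zld294 against wild type, from 0.07 to -0.18 against day 2 alone and -0.01 without replicate 1 or 2 of the day 1 wild type. Pseudocounts and filters on low values kept each count within 1.5 times of that reported. Median-ratio scaling gave 1 for Zf5 over both days and 1 on day 2. It gave 4 for Zld294 against wild type, 11 for Zld294 against Zf5 and 14 for the wild-type groups. Of all genes tested, it called 4.71%, 1.90%, 13.4%, 7.55% and 6.20%, respectively. All 26 libraries in 1 fit gave 27, 14 and 1 for Zf5 over both days, day 1 and day 2. That fit gave 1 for the difference of the effects, 1 for Zld294 against wild type and 19 for the wild-type groups. Of all genes tested, it called 14.5%, 5.61%, 7.07%, 1.23%, 8.42% and 4.89%, respectively. Where both days enter, that fit also weighted day 1 and day 2 equally, whereas the reported fits weighted them by their libraries. The median of the 73 moved with it, from 0.30 to 0.39 for Zf5 over both days and from 0.07 to 0.21 for Zld294 against wild type. A stage covariate gave 21, 2, 10, 2, 7, 16 and 59. The order is Zf5 over both days, day 1, day 2, the difference, Zld294 against wild type, Zld294 against Zf5 and the wild-type groups. Of all genes tested, the stage covariate called 35.6%, 12.5%, 35.5%, 2.27%, 39.5%, 20.8% and 39.1%, respectively. Its lists differ between genotypes, so in comparisons of genotypes it cannot separate stage from genotype. Against wild type of day 1 and day 2 alone Zld294 gave 43 and 18, and against Zf5 of day 1 alone 22. Of all genes tested, these fits called 27.0%, 23.8% and 58.5%. Leaving out 1 library at a time gave 1 to 7, 0 to 9, 0 to 1 and 0 to 0 for the Zf5 effects. It gave 2 to 4 and 1 to 13 for Zld294 and 3 to 38 between the wild-type groups, in the same order. Between the Zf5 days it gave 0 to 0. Counts of all genes for the Zf5 effects were then 280 to 869, 0 to 1233, 67 to 160 and 26 to 45. For Zld294 they were 835 to 1198 and 277 to 2095, and between the wild-type groups 126 to 1215. Chosen after seeing the data, leaving out replicates 1 and 3 of Zf5 day 2 gave 20 for Zf5 over both days. It gave 33 for Zld294 against Zf5. Also chosen after seeing the data, leaving out the wild-type libraries with the highest early zygotic score gave 50. Of all genes tested, these fits called 37.5%, 58.0% and 20.5%. Counts of all genes moved too, from 424 to 3048 for Zf5 over both days and from 463 to 4112 for Zld294 against Zf5 without replicates 1 and 3, and from 587 to 126 between the wild-type groups without replicate 1 of day 1. The cause was not tested.

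The reported fits did not pair samples by replicate number. Deviations of same-numbered Zf5 and wild-type libraries correlated between -0.589 and 0.705 over 6418 genes in 9 pairs. These values cannot show whether same-numbered samples were handled together. With the replicate number as a block, 1 gene was called for Zf5 over both days, 1 for Zld294 against wild type, 0 for Zld294 against Zf5 and 0 between the wild-type groups, where 0 of all genes were. Limits are the unknown depth, the day that is confounded with Zld294 and with the wild-type label, and overlapping genes, for which the use of strand is not given.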

Other observations

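mRpS30 lies on chromosome X (BDGP6.54, bases 15786047 to 15788288), 8.62 kb from sordd2. sordd2 was between 0.0833 and 0.902 TPM in the 8 Zld294 libraries and between 42.4 and 129 TPM in the other 18, and it was chosen after its values were seen.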
